A study of Rattus norvegicus with 17 samples.

Results

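P2rx3 encodes an ATP-gated ion channel of many unmyelinated pain and itch neurons. It marked 361 of the 690 rat dorsal root ganglion cells that held at least 2000 detected genes and 50000 UMIs (unique molecular identifiers, which count RNA molecules), out of 1040 cells in all. These P2rx3 cells had at least 150 CPM (the gene's share of the cell's UMIs, on the usual counts-per-1000000 scale) of P2rx3 and under 30 CPM of Clmp, a gene typical of another nociceptor class. Each cell was given an injury score, the mean of log2(CPM + 1) of Atf3 and Sprr1a. Within each batch the third of the cells with the highest score, here the high side, was compared with the third with the lowest, the low side. The 15 batches with at least 9 such cells gave 354 cells, of which 114 were high, 114 low and 126 in the middle. One more batch held 7 such cells and was left out. The sides were chosen by the measured levels of Atf3 and Sprr1a and the cells by those of P2rx3 and Clmp, so in this split these 4 genes are described without a test, and the other genes that passed a filter on low counts were tested.

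Atf3 is a stress-induced transcription factor of the bZIP family that sensory neurons switch on when their axon is cut. It pairs with Jun at DNA sites of the AP-1 type, and it acts beside Sox11, Klf6, Stat3 and other factors in the programme that lets a peripheral axon regrow. Sprr1a, best known from the cornified envelope of skin, is among the effectors of this programme and associates with actin in growing axons, and Gap43, galanin and the small heat-shock protein Hspb1 are other well known members. Dissociating a ganglion cuts the axons of its neurons.

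The study profiled neurons of the L4 and L5 ganglia of both sides from naive adult male Sprague Dawley rats of 200 g, to ask what sets the axon growth capacity of sensory neuron subtypes. Cells were collected singly with a mouth pipette and amplified by a modified Smart-seq2 method that counts RNA 3' ends. All 17 labelled samples are batches of such cells in 1 group, with no injury, genotype or treatment to compare. Batch 21 held the same counts as batch 20 and was not used, and no other cells of the 16 batches had identical counts. The protocols describe dishes kept for 15 min and for 72 h and at least 5 rats per time point, but the sources used here give neither the time nor the animals of a batch. Whether a batch mixed both times is not given either, so a difference in time between high and low cells cannot be told apart from the score. High and low cells were compared within batches, animals may recur between batches, and p-values measure the spread between batches only. Batches held 3812280 to 26065847 UMIs, and the summed sides 751130 to 4657378 UMIs from 4 to 14 cells.

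The promoter of Sprr1a held AP-1 letters, and it is shown because Sprr1a helped to choose the cells. In the RefSeq window of GRCr8 that runs from 250 bases before the gene's start to 50 after it, the AP-1 letters TGANTCA (N is any base, the motif reads the same on both strands) occurred at 2 places, 147 and 117 bases before the start. The stretch with both (chr2:180752726-180752782, minus strand) and those around the AP-1 letters of the called genes Hsp90ab1 (chr9:22930365-22930391), Msmo1 (chr16:29746963-29746989) and Slc16a3 (chr10:106712086-106712112, all plus strand) are printed 5′ to 3′ with the motif in capitals.
Sprr1a: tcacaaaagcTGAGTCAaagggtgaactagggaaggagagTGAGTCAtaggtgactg
Hsp90ab1: ggagctctctTGAGTCAcccccgcgca
Msmo1: ttcgttgacgTGAGTCAcacgctgtcc
Slc16a3: tgtgaatatcTGAGTCAgggcaacagg
Sprr1a was high by the choice of cells, Hsp90ab1 and Msmo1 were called higher and Slc16a3 lower (values below), so the letters occurred in genes of both directions. Across the tested genes with exactly 1 window, AP-1 letters occurred in 42 of 650 genes called higher (6.46%), 14 of 304 called lower (4.61%) and 329 of 7114 tested (4.62%). The CRE letters TGACGTCA, a site of related factors that shares no match with the AP-1 letters, occurred in 25 (3.85%), 5 (1.64%) and 258 (3.63%) of the same genes. In the whole table, 7.33% of 24206 windows held AP-1 letters. A match of letters is a description and does not show binding.

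Every cell of the split carried Atf3, so the low side is low in the score but not free of Atf3. Per cell, Atf3 ran from 428 to 1576 CPM with a median of 886 in high cells, and from 55.5 to 1582 CPM with a median of 498 in low cells. The ranges overlapped widely. Sprr1a separated the sides more, with 80.5 to 2209 CPM (median 883) in high cells and 0 to 1051 CPM (median 106) in low cells, of which 2 had no Sprr1a UMI. Middle cells lay between, at a median of 665 CPM of Atf3 and 425 CPM of Sprr1a. Taken one by one over the 15 batches, the highest score on the low side had a median of 8.45, the lowest middle score 8.65, the highest middle score 9.35 and the lowest score on the high side 9.46. In batch 27 the low side ended at 8.35 and the middle began at 9.07.

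Summed per batch, Sprr1a was at 556 to 1379 CPM (median 972) on the high side and 13.9 to 320 CPM (median 173) on the low side, a log2 fold change of 2.66 ± 0.21 (SE, n = 15 batches) that the choice of cells set. Atf3 was at 496 to 1187 CPM (median 938) against 363 to 736 CPM (median 446), a log2 fold change of 0.96 ± 0.11. P2rx3 itself had a log2 fold change of -0.01 ± 0.08. Sums of sides are scaled by TMM factors. Values of single cells, single-gene splits, marker sums, middle cells and the genes with a called interaction are plain CPM.

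**Figure D1:**
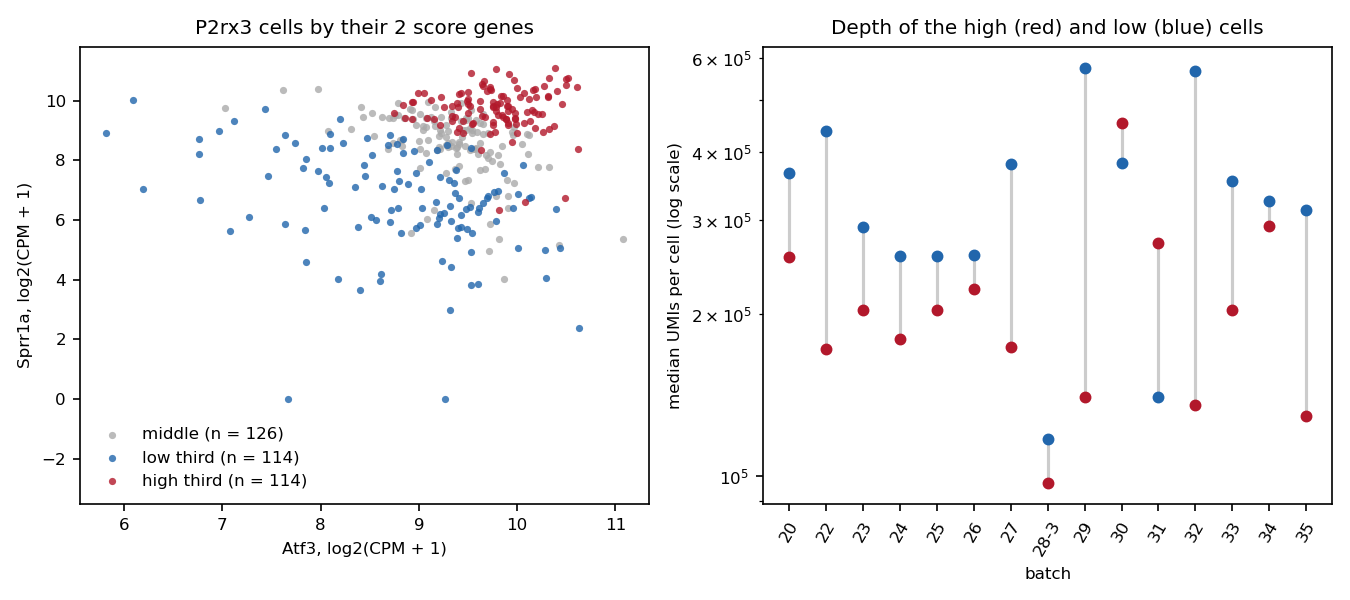
Left, log2(CPM + 1) of Sprr1a against that of Atf3 in the 354 P2rx3 cells of the 15 batches, 1 point per cell, red for high, blue for low and grey for middle cells. Right, median UMIs per cell of the high (red) and low (blue) cells of each batch on a log axis, with the high side lower in 13 of 15 batches.

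High cells were shallower than low cells. The batch medians were 97238 to 452902 UMIs per cell (median 203484) on the high side and 117306 to 574606 (median 324566) on the low side. The mean log2 difference was -0.66 (SD 0.81, n = 15), lower in 13 of 15 batches (p = 0.0066, two-sided sign-flip permutation test with 100000 draws). High cells also had fewer detected genes, with a median of 9007 against 9858 (p = 0.0076, same permutation test). Therefore the comparison was repeated with cells thinned to 50000 UMIs with the sides kept, and with cells split on the residual of the score on log2 UMIs, where the depth of the sides differed by -0.07 (SD 0.46, n = 15) with p = 0.54 in the same permutation test. For the named genes, calls that did not pass in one of them are given below.

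The 2 score genes were also tested against each other, each in cells split by the other alone. Cells split by Atf3 alone had 203 to 835 CPM of Sprr1a (median 633) on the side high in Atf3 and 59.9 to 582 CPM (median 378) on the other. Sprr1a was higher in 13 of 15 batches, by 0.93 ± 0.19 on the log2 scale (edgeR adjusted p = 0.000902). The sides of that split differed more in depth than those of the score, by -1.18 (SD 0.56, n = 15) on the log2 scale of UMIs per cell, lower in 15 of 15 batches (p = 9e-05, permutation test), and the part of depth in the difference was not tested. Cells split by Sprr1a alone had 505 to 956 CPM of Atf3 (median 731) against 374 to 878 CPM (median 588). That difference of 0.35 ± 0.11, higher in 10 of 15 batches, did not pass (edgeR adjusted p = 0.0703). Across the cells of a batch, Pearson's r of the 2 genes had a median of 0.22 over the 15 batches, from -0.23 to 0.65, and was negative in 4. These r values describe cells that share their library and depth.

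Of 9792 genes tested with edgeR's quasi-likelihood test (batch and side as terms, Benjamini-Hochberg adjustment over all genes, threshold 0.05), 1293 were called, which is 13.2%. Of these, 864 were higher in high cells (8.82%) and 429 lower (4.38%). The direction followed abundance. Among the 1301 genes with a mean of at least 200 CPM, 714 (54.9%) were called higher and 1 lower, with a median log2 fold change of 0.28, while among the 8491 less abundant genes 150 (1.77%) were higher and 428 (5.04%) lower, with a median of -0.10. For gene groups with abundant members, the share of those members called higher is therefore given as well, to be read against the 54.9%. With cells thinned, 478 of 5869 genes (8.14%) were called, and with the residual split 700 of 9872 (7.09%). Of the genes with at least 200 CPM, thinning left 244 called higher and 13 lower, and the residual split 270 and 5.

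**Figure D2:**
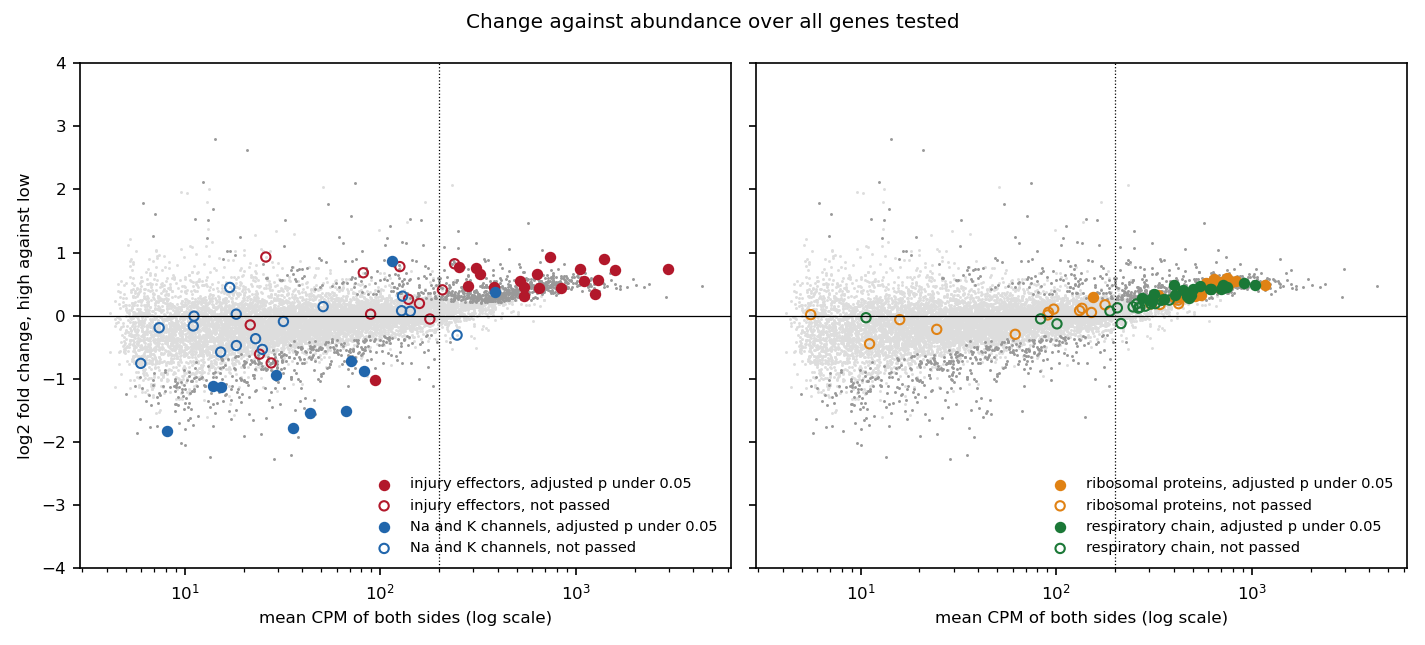
Log2 fold change of high against low P2rx3 cells against mean CPM (log axis, dotted line at 200 CPM) for all genes tested, dark grey where called and light grey where not. Coloured points are the members of 4 gene lists, filled where called and open where not. Injury effectors, ribosomal and respiratory chain genes called higher lie right of the line with 1 exception, and channel genes called lower lie left of it.

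Among transcription factors of the injury programme, 7 of 25 tested were higher in high cells and none lower, with a median log2 fold change of 0.04. Of the 9 with at least 200 CPM, 6 were higher (66.7% beside 54.9%), so the count is near that of all abundant genes. Jun, the AP-1 partner of Atf3, was at 267 to 562 CPM (median 403) on the high side and 197 to 487 CPM (median 271) on the low side. It was higher in 13 of 15 batches, by 0.49 ± 0.10 (adjusted p = 0.00209), with overlapping ranges. Klf6 and Klf7, zinc-finger factors that promote axon growth, rose by 0.38 ± 0.08 (adjusted p = 0.00341) and 0.44 ± 0.10 (adjusted p = 0.00288). Stat3, Atf4, Nfil3 and Smad1 were the other 4, at 0.33 to 0.42. Sox11, a factor that drives regeneration, was at 21.5 to 104 CPM (median 41.0) against 8.48 to 72.4 CPM (median 32.7) and did not pass (0.41 ± 0.23, adjusted p = 0.263). With cells thinned, 2 of 18 tested factors were called, Klf6 and Klf7, while Jun had 0.33 (adjusted p = 0.0846), and Stat3, Atf4, Nfil3 and Smad1 did not pass. With the residual split 3 of 24 were called, Jun, Klf6 and Smad1, and Klf7 did not pass (adjusted p = 0.105).

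Effectors of the programme were called higher more often. Of 32 tested, 19 were higher in high cells and 1, Ccl2, was lower, and of the 21 with at least 200 CPM, 19 (90.5%) were higher. Members with at least 200 CPM had a median log2 fold change of 0.56, beside 0.28 for all genes at that level. The 11 less abundant members had 0.02, beside -0.10. Over all members the median was 0.51, against -0.06 over all genes tested, a comparison that does not match abundance. Gap43, the growth cone phosphoprotein, was at 1457 to 2943 CPM (median 1923) on the high side and 777 to 1504 CPM (median 1177) on the low side. Its levels overlapped only at the edge of the ranges, and it was higher in all 15 batches, by 0.73 ± 0.09 (adjusted p = 3.17e-05). Middle cells had a median of 1377 CPM. Gadd45a, a stress and growth arrest protein, rose in all 15 batches from a median of 757 to 1367 CPM, by 0.73 ± 0.09 (adjusted p = 1.66e-05). Hspb1, which protects injured neurons, was the most abundant of them, with 2457 to 5397 CPM (median 3833) against 1434 to 3389 CPM (median 2199.5), and rose by 0.73 ± 0.09 in all 15 batches (adjusted p = 2.63e-05).

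Galanin and vasoactive intestinal peptide are neuropeptides that injured sensory neurons make in place of their usual transmitters. Vip had 177 to 1879 CPM (median 971) in high cells and 54.0 to 680 CPM (median 532) in low cells. Its batches differed widely, with batch 23 lowest on both sides, yet it was higher in all 15, by 0.93 ± 0.12 (adjusted p = 3.72e-05). Gal had 621 to 3362 CPM (median 1979) against 231 to 1580 CPM (median 971) and rose by 0.89 ± 0.17 (adjusted p = 0.00115). It was lower on the high side in batches 23, 31 and 34. Adcyap1, the precursor of the neuropeptide PACAP, had a mean of 322 against 158 CPM and did not pass (0.82 ± 0.31, adjusted p = 0.0797), though it did with cells thinned (adjusted p = 0.039).

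Among surface and secreted effectors some rose and 1 fell. Flrt3, an adhesion protein, had 464 to 798 CPM (median 591) in high and 208 to 605 CPM (median 403) in low cells, higher in all 15 batches by 0.55 ± 0.08 (adjusted p = 8.8e-05). The urokinase receptor gene Plaur rose by 0.75 ± 0.12 (adjusted p = 0.000193) and Timp1, an inhibitor of matrix proteases, by 0.55 ± 0.09 (adjusted p = 0.000388). Ecel1, a membrane peptidase induced by axotomy, rose by 0.66 ± 0.16 (adjusted p = 0.00812). Cacna2d1, the calcium channel subunit that binds gabapentin, rose from a median of 310 to 427 CPM, by 0.46 ± 0.09 (adjusted p = 0.00172). Ccl2, a chemokine, fell by 1.02 on the log2 scale (SE 0.31, adjusted p = 0.0294), lower in 12 of 15 batches, and did not pass with cells thinned (adjusted p = 0.0516) or with the residual split (adjusted p = 0.178). Of the fixed effectors, Npy, Csf1 and Fst, like the immediate-early gene Fos, were too low to be tested, and Nts did not pass (-0.75 ± 0.48, adjusted p = 0.348).

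The effector calls remained in part where depth was handled differently. With cells thinned, 17 of 28 tested effectors were called higher and none lower, and with the residual split 13 of 32 and none. Gap43, Gadd45a, Hspb1, Vip, Gal, Flrt3 and Plaur passed in both splits. Their values were all smaller under the residual split than in the main comparison. With that split Gap43 was at 0.40, Gadd45a at 0.45, Hspb1 at 0.48, Vip at 0.60, Gal at 0.60, Flrt3 at 0.29 and Plaur at 0.69. Ecel1 and Cacna2d1 did not pass there (adjusted p = 0.0987 and 0.103).

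**Figure D3:**
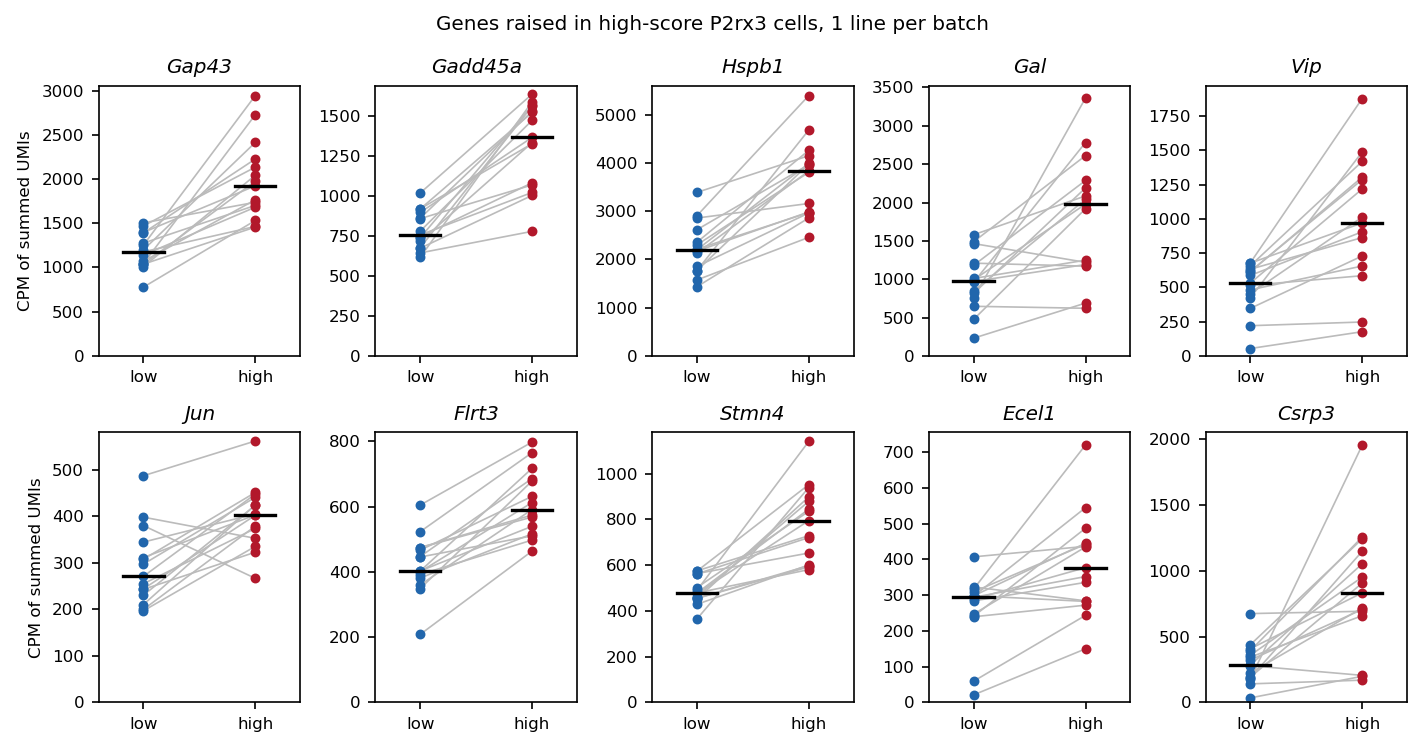
CPM of summed UMIs in low (blue) and high (red) P2rx3 cells for 10 genes called higher, with 1 line per batch (n = 15) and black bars at the medians, each axis from 0. Gap43, Gadd45a, Hspb1, Vip, Flrt3 and Stmn4 rise along every line, and Stmn4 is the gene whose sides do not overlap.

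Of 32 genes of the growth cone and cytoskeleton tested, 19 were higher and 1 lower, and of the 25 with at least 200 CPM, 19 (76%) were higher. Stmn4, a stathmin that regulates microtubules, had 581 to 1142 CPM (median 795) in high cells and 365 to 575 CPM (median 478) in low cells, so the lowest high side exceeded the highest low side. Its rise was 0.66 ± 0.09 (adjusted p = 5.72e-05), and those of its relatives Stmn2 and Stmn3 were 0.58 ± 0.10 and 0.56 ± 0.10. Tubulins Tubb2b (0.62 ± 0.10, adjusted p = 0.000215) and Tubb2a (0.63 ± 0.09, adjusted p = 9.83e-05), which neurons use in axon growth, were higher in all 15 batches. Fabp5, a lipid-binding protein, rose from a median of 1079 to 1773 CPM (0.68 ± 0.09, adjusted p = 3.72e-05), and Pfn1, which feeds actin filaments, by 0.63 ± 0.09 (adjusted p = 0.000144). Ppp1r1c, a phosphatase inhibitor, was the member that fell, by 0.69 on the log2 scale (adjusted p = 0.0126). With cells thinned 11 of 29 were called higher and 1 lower, and with the residual split 11 of 32 and 1.

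Neuronal intermediate filaments were higher in 3 of 7 genes tested and in 3 of the 6 abundant ones (50%), which is below the 54.9%. They were the neurofilament subunits Nefm (0.52 ± 0.11, adjusted p = 0.00246) and Nefh (0.48 ± 0.13, adjusted p = 0.0136) and peripherin, Prph (0.50 ± 0.12, adjusted p = 0.00693). All 3 passed with cells thinned, and only Nefh with the residual split. Axonal transport genes were higher in 15 of 32 and lower in none, and 14 of the 21 abundant ones were higher (66.7% beside 54.9%), so the count is near that of all abundant genes. Kif5c, a kinesin heavy chain, had 556 to 1082 CPM (median 749) against 391 to 741 CPM (median 526), a rise of 0.53 ± 0.08 (adjusted p = 0.000206). The kinesin light chain Klc1 rose by 0.53 ± 0.10 and the dynactin subunit Dctn2 by 0.48 ± 0.09 (adjusted p = 0.00107 and 0.000734). These 3 were the members called with cells thinned, where 3 of 32 passed.

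Of 16 tested members of the kinase pathway that signals axon injury, DLK to JNK, 3 fell, 1 rose and 12 did not pass. The 3 were among the 13 under 200 CPM (23.1%), beside 5.04% of all genes at that level. Map3k12, which encodes DLK, was at a median of 18.5 against 30.4 CPM and fell by 0.66 on the log2 scale (adjusted p = 0.0427). Mapk9, a JNK, fell by 0.39 (adjusted p = 0.0241), lower in 14 of 15 batches. Sarm1, an enzyme that drives axon degeneration, fell by 0.65 (adjusted p = 0.0229). None of these 3 passed with the residual split, and of those tested with cells thinned, Mapk9 and Sarm1, neither did. The member that rose was Stmn2, whose protein JNK phosphorylates. Immediate-early genes were called in 1 of 9 tested, Btg2 (0.29 ± 0.08, adjusted p = 0.0243), a count near the 13.2% called over all genes. Btg2 did not pass with cells thinned (0.07, adjusted p = 0.765).

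Stress genes, Hspb1 and Atf4 among them, gave 6 of 25 higher and 1 lower, and 6 of the 12 abundant ones were higher (50%), below the 54.9%. The chaperones Hspa8 (0.48 ± 0.10, adjusted p = 0.0019) and Hsp90ab1 (0.50 ± 0.11, adjusted p = 0.00276) rose, and the inducible chaperone Hspa1b fell from a median of 35.8 to 23.1 CPM (adjusted p = 0.0383). With the residual split 1 of the 25 was called higher, Hspb1, and 1 lower, which was not Hspa1b (adjusted p = 0.198). With cells thinned 2 of 21 were higher, Hspb1 and Hsp90ab1, and Hspa1b was not tested. Hspa8 passed in neither.

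Of 27 sodium and potassium channel genes tested, which set the firing of nociceptors, 9 fell, 2 rose and 16 did not pass, and of the 25 under 200 CPM, 9 (36%) fell, beside 5.04% of all genes at that level. The sodium channel Scn11a (Nav1.9), which sets the resting excitability of small nociceptors, was at 3.69 to 44.2 CPM (median 14.2) on the high side and 11.2 to 181 CPM (median 43.8) on the low side. It fell by 1.77 on the log2 scale (SE 0.23, adjusted p = 3.72e-05), lower in 14 of 15 batches with batch 28-3 the exception. Scn10a (Nav1.8), the main carrier of nociceptor action potentials, fell by 0.87 (SE 0.25, adjusted p = 0.0207), from a median of 88.6 to 47.3 CPM. Both passed with cells thinned, with the residual split and without the pruriceptor-marked cells described below.

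Potassium channels of the fast inactivating A type were among those that fell. Kcnd3 (Kv4.3) had 1.43 to 83.6 CPM (median 39.8) against 40.0 to 159 CPM (median 89.8) and fell by 1.52 (SE 0.22, adjusted p = 0.000113). Its accessory subunit gene Kcnip4 was lower in all 15 batches, with medians of 19.1 against 56.5 CPM, and fell by 1.54 (SE 0.25, adjusted p = 0.000351). Kcnd1 (Kv4.1) fell by 0.72 and the calcium-activated channel Kcnma1 by 0.93 (adjusted p = 0.0168 and 0.0215). The delayed rectifier Kcna1 (Kv1.1), a brake on firing, did the reverse, with 10.2 to 286 CPM (median 162) against 29.5 to 159 CPM (median 76.7). It rose in 14 of 15 batches, by 0.87 ± 0.18 (adjusted p = 0.00214), batch 23 being the exception, and Kcna6 rose by 0.37 ± 0.11 (adjusted p = 0.0213). With cells thinned, 7 of 14 channels tested fell and 1, Kcna1, rose, and with the residual split 8 of 26 fell and 1 rose. Kcna6 passed in neither (adjusted p = 0.154 and 0.0634), and Kcnd1 did not pass with the residual split (adjusted p = 0.0592).

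Receptors of sensory and trophic signals gave 4 of 16 and 2 of 16 lower, and none higher. Of those under 200 CPM, 4 of 16 (25%) and 2 of 14 (14.3%) were lower, beside 5.04% of all genes at that level. With cells thinned 2 of 8 and 0 of 7 were lower, and with the residual split 2 of 16 and 1 of 16. Chrna3, a nicotinic receptor subunit of a nociceptor subset, was at a median of 23.4 against 56.4 CPM and fell by 1.51 (SE 0.32, adjusted p = 0.00291). Ntsr1, a marker listed for the same subset, was at 0.62 ± 0.28 and did not pass (adjusted p = 0.159). The acid-sensing channel Asic3 fell by 1.04 (SE 0.33, adjusted p = 0.0409). Gfra2, the receptor for neurturin found on non-peptidergic neurons, was at 1.78 to 30.7 CPM (median 7.92) against 4.69 to 84.3 CPM (median 26.9), so it was low on both sides. It fell by 1.66 (SE 0.29, adjusted p = 0.000565), lower in 13 of 15 batches, and was not tested with cells thinned. Its co-receptor Ret had medians of 161 and 162 CPM (-0.09 ± 0.12, adjusted p = 0.701). The heat and capsaicin receptor Trpv1 was at a median of 3.42 against 6.43 CPM and did not pass (-1.30 ± 0.51, adjusted p = 0.0959). Calcium channel subunits were called in 2 of 11 genes (18.2%, beside 13.2% over all genes). Cacna2d1 was higher and Cacna1a lower (-0.56 ± 0.16, adjusted p = 0.0252). Cacna1a passed neither with cells thinned nor with the residual split (adjusted p = 0.108 and 0.21).

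Neuropeptides and granins gave 4 of 23 higher and 1 lower, and 4 of the 11 abundant ones were higher (36.4%), below the 54.9%. The 2 genes for calcitonin gene-related peptide went apart. Calcb, the beta form, had 6.45 to 289 CPM (median 43.3) in high and 33.5 to 496 CPM (median 151) in low cells, a log2 fold change of -1.599 (SE 0.27, adjusted p = 0.000464) and lower in 14 of 15 batches. Calca, the alpha form, had a median of 1009 against 521 CPM, a rise of 0.73 ± 0.23 (adjusted p = 0.0406) in 10 of 15 batches that did not pass with cells thinned (adjusted p = 0.0621) or with the residual split (adjusted p = 0.275). The 3' ends of these neighbouring, similar genes could share reads, so their separate counts are uncertain. Tac1, the substance P precursor, did not pass (0.59 ± 0.36, adjusted p = 0.318).

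**Figure D4:**
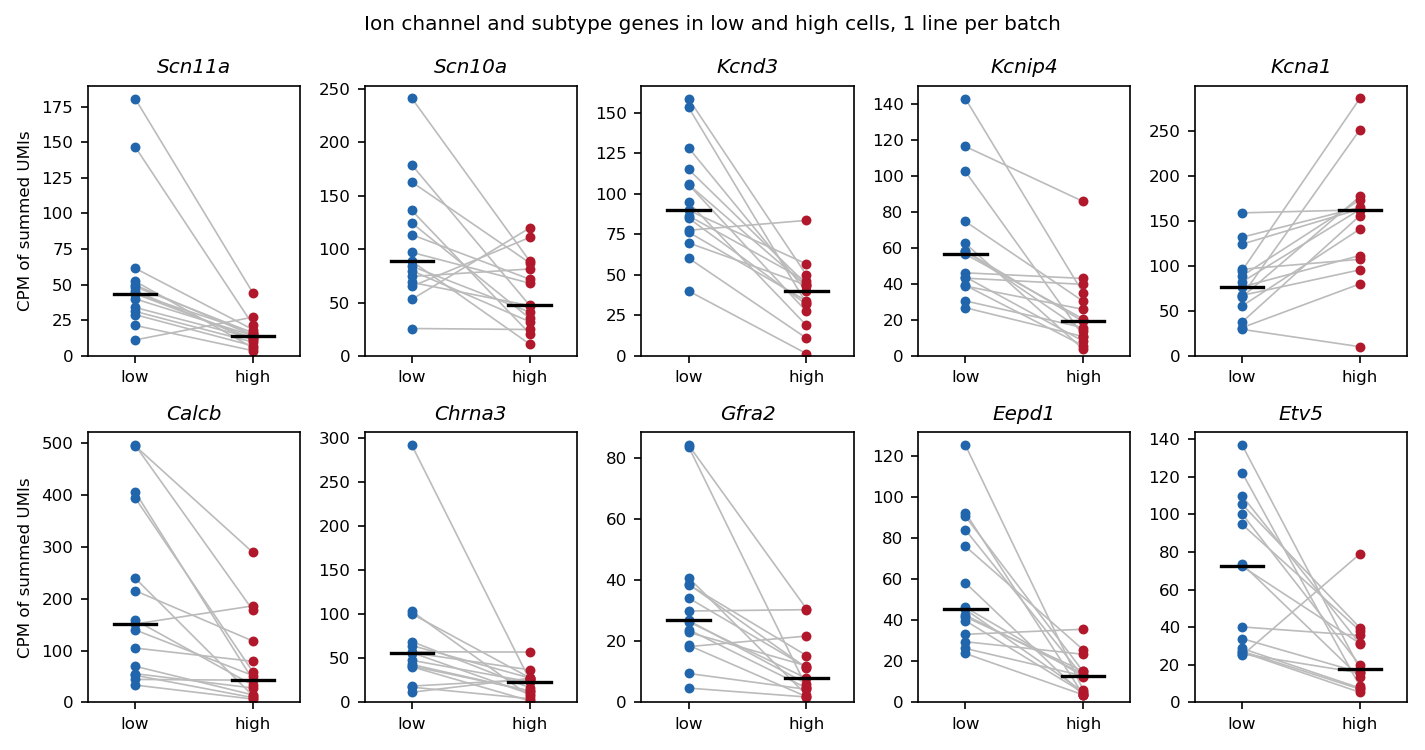
CPM of summed UMIs in low (blue) and high (red) P2rx3 cells for 10 genes of channels, receptors and subtypes, with 1 line per batch (n = 15) and black bars at the medians, each axis from 0. Kcna1 rises in 14 of 15 batches, the other 9 genes fall, and Kcnip4 falls along every line.

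Genes that limit axon growth split by abundance, with 2 of 17 tested higher and 5 lower. The 2 were among 3 abundant genes (66.7%, beside 54.9% of all abundant genes). The 5 were among 14 under 200 CPM (35.7%, beside 5.04% of all genes at that level). Rtn4, which encodes the Nogo proteins, rose in all 15 batches from a median of 599 to 827 CPM (0.59 ± 0.10, adjusted p = 0.000367), and the ubiquitin ligase gene Nedd4 rose by 0.32 ± 0.08 (adjusted p = 0.00526). The receptor genes Ptprs and Lingo1, which read inhibitory cues of the surroundings, fell by 1.15 and 1.16 (adjusted p = 0.00626 and 0.00784). Ptprs was lower in all 15 batches, with medians of 6.32 against 12.4 CPM. With cells thinned, 1 of 8 was called, Rtn4, while Nedd4 was not (adjusted p = 0.318). With the residual split 1 of 17 was higher and 5 were lower, Ptprs and Lingo1 among them. Ptprs and Lingo1 were not tested with cells thinned. Neither passed within the limit on subtype markers described below (adjusted p = 0.457 and 0.175).

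Housekeeping groups were read against the 54.9% of all abundant genes. Cytosolic ribosomal protein genes were called higher in 47 of 63 and lower in none, with 46 of the 50 at 200 CPM or more (92%). Rps18 rose in all 15 batches from a median of 553 to 820 CPM (0.55 ± 0.08, adjusted p = 0.00018). Nuclear genes of the respiratory chain were higher in 21 of 36, or 21 of the 32 abundant ones (65.6%), with Sdhb, a subunit of succinate dehydrogenase, at 0.48 ± 0.08 (adjusted p = 0.000259). The 13 mitochondrial transcripts gave 7 higher, which is 7 of the 11 abundant ones (63.6%), Mt-co1 among them (0.40 ± 0.09, adjusted p = 0.00495). Of all UMIs, mitochondrial ones took a median of 0.858% in high and 0.727% in low cells, higher in 11 of 15 batches. Their part in the results was not tested. The respiratory chain and mitochondrial shares are near that of all abundant genes. With cells thinned, 12 of 59 ribosomal, 4 of 35 respiratory chain and 0 of 12 mitochondrial genes passed, and with the residual split 11 of 63, 3 of 36 and 0 of 13. Of all 1301 abundant genes, 244 were higher with cells thinned and 270 with the residual split. The ribosomal shares there, taken over all members tested, are near these.

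Glycolysis genes split into 4 higher and 4 lower of 17, and 4 of the 9 abundant ones were higher (44.4%). Of the 8 under 200 CPM, 4 were lower (50%, beside 5.04% of all genes at that level). The enzymes Eno1 (0.47 ± 0.09, adjusted p = 0.00152) and Pgk1 (0.46 ± 0.09, adjusted p = 0.00198) rose. The lactate transporter Slc16a3 fell from a median of 53.1 to 22.6 CPM (-1.33 ± 0.26, adjusted p = 0.0016), and the phosphofructokinase Pfkm by 1.20 (adjusted p = 0.00301). With cells thinned 1 of 16 was higher, Eno1, and 1 lower, Slc16a3. With the residual split none of 17 was higher and 3 were lower, Pfkm among them, while Slc16a3 did not pass (adjusted p = 0.101). Pfkm was not tested with cells thinned. Pgk1 passed in neither (adjusted p = 0.0825 and 0.082). Cholesterol genes were higher in 3 of 22 and in 3 of the 9 abundant ones (33.3%), among them Fdps and Msmo1 of the synthesis pathway (0.57 ± 0.10 and 0.44 ± 0.12), at adjusted p = 0.000454 and 0.0187. Msmo1 passed neither with cells thinned nor with the residual split (adjusted p = 0.207 and 0.0732). Synaptic vesicle genes were higher in 4 of 23 and in 4 of the 10 abundant ones (40%), with the vesicle protein Syt4 at 0.49 ± 0.11 (adjusted p = 0.00297). The shares of abundant genes called higher in these 3 groups are below the 54.9%, and no synaptic gene passed with cells thinned or with the residual split.

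Among all called genes with at least 50 CPM on the higher side and 1 direction in at least 80% of batches, the 12 with the largest rise included receptors. Htr2b, a serotonin receptor, had 29.3 to 276 CPM (median 95.7) against 6.10 to 70.1 CPM (median 18.4) and rose by 2.09 ± 0.35 (adjusted p = 0.000351). Pth1r, the parathyroid hormone receptor, rose by 1.77 ± 0.44 (adjusted p = 0.00786). Mon1b, a factor of endosome maturation, had 141 to 357 CPM (median 231) against 31.2 to 178 CPM (median 91.5), higher in 14 of 15 batches by 1.51 ± 0.20 (adjusted p = 4.74e-05).

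Csrp3, the muscle LIM protein that also appears in injured sensory neurons, was the most abundant of the 12, with 169 to 1953 CPM (median 832) against 34.5 to 674 CPM (median 284). It rose by 1.46 ± 0.22 (adjusted p = 0.00019) in 14 of 15 batches, and middle cells had a median of 439 CPM. Cish, a suppressor of cytokine signalling that STAT factors induce, rose in all 15 batches from a median of 75.0 to 159 CPM (1.17 ± 0.14, adjusted p = 1.89e-05). Mx2, an interferon-induced gene, also rose in all 15 (1.16 ± 0.21, adjusted p = 0.000656). Thbd, Pcp4, Syce1l, Abca1 and St3gal4 were also among the 12, at 1.16 to 1.53. All 12 passed with cells thinned, and 10 with the residual split, Thbd and Abca1 being the others (adjusted p = 0.0987 and 0.156).

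The 12 largest falls were Scn11a, Calcb, Kcnip4, Kcnd3 and Chrna3, described above, and 7 more genes. Eepd1, an endonuclease-like protein gene, had 3.60 to 35.6 CPM (median 12.8) in high and 23.8 to 125 CPM (median 45.2) in low cells and fell by 2.20 (SE 0.31, adjusted p = 7.76e-05). Ano3, of the anoctamin membrane proteins, fell by 1.92 (SE 0.35, adjusted p = 0.000859). Etv5, an ETS transcription factor downstream of growth factor signals, had 5.38 to 78.9 CPM (median 17.9) against 25.0 to 137 CPM (median 72.3) and fell by 1.55 (SE 0.28, adjusted p = 0.00085) in 14 of 15 batches. The LIM cofactor Ldb2, the diacylglycerol kinase Dgkh, Lrrn1 and Nrsn2 complete the 12, of which Nrsn2 fell least, by 1.35. Of the 10 tested with cells thinned, 9 passed, Lrrn1 being the other (adjusted p = 0.0684), and with the residual split 11 of 12 passed, Chrna3 being the other (adjusted p = 0.0591).

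Some subtype markers among the P2rx3 cells were not equally spread over the sides. Sst, the somatostatin gene of itch neurons, reached 50 CPM in 43 of 114 high cells (37.7%) and 18 of 114 low cells (15.8%). Nppb, another itch neuron gene, did so in 33.3% and 16.7%. By batch, the Sst share was 37.8% ± 26.4 (SD, n = 15) against 15.9% ± 12.7. As sums neither gene passed, with Sst at 2.07 (adjusted p = 0.128) and Nppb at 1.49 (adjusted p = 0.196). The 7 pruriceptor markers summed to 29.6 to 1725 CPM (median 518) in high and 50.6 to 804 CPM (median 179) in low cells, higher in 10 of 15 batches, and 0 of the 4 tested passed. Of the 4, Nts went the other way (-0.75), and Osmr was at 0.44.

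Non-peptidergic markers were lower as a sum in most batches. Their 12 genes summed to 296 to 933 CPM (median 473) in high and 526 to 1241 CPM (median 852) in low cells, lower in 13 of 15 batches. Of the 10 tested, 5 were lower, among them Gfra2, Scn11a, Kcnk18 and Perp. Cells with at least 50 CPM of Scn11a made up 8.77% of high and 37.7% of low cells, and those of Gzmbl3, a granzyme-like gene of these neurons, 25.4% and 36.8%. Mrgprd, the receptor that defines the largest non-peptidergic class, had UMIs in only 1 high and 3 low cells, while Calca reached 50 CPM in all 228 cells. The cells of the split are therefore called P2rx3 cells and given no subtype name.

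The comparison was repeated on cells with Sst, Nppb, Th and Trpm8 each under 50 CPM, which left 134 cells in 14 batches. It called 304 of 8454 genes (3.6%), 229 higher and 75 lower. The depth of the sides there differed by -0.29 (SD 1.03, n = 14) on the log2 scale (p = 0.3, permutation test). Effectors were called higher in 12 of 32 and lower in none, with Gap43 at 0.59 (adjusted p = 0.00735), Gal at 0.92 (adjusted p = 0.0133) and Vip at 0.72 (adjusted p = 0.0214). Growth cone genes were higher in 9 of 32. Most members of both lists were abundant, and the share of abundant genes called in this run was not worked out. Both counts therefore have no matched share beside them. Jun passed (0.45, adjusted p = 0.0364) and Klf6 did not (0.08, adjusted p = 0.759). Of the 12 largest rises, Htr2b, Mon1b and Cish passed, and St3gal4 (0.08), Abca1 (0.10) and Thbd (0.39) had values over 1.5 times smaller than with all cells, as did Mx2 (0.49), Pcp4 (0.60) and Csrp3. Csrp3 had 0.76 (adjusted p = 0.113). Of the 12 largest falls, 6 passed, Scn11a (-1.78) and Eepd1 (-2.19) among them. Kcnd3 and Kcnip4 had -0.81 and -0.79 and did not pass (adjusted p = 0.0561 and 0.197). The part of subtypes in the remaining calls was not tested.

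Markers of other cells differed little between the sides. The 13 glial markers summed to 1206 to 1717 CPM (median 1410) in high and 1125 to 1714 CPM (median 1282) in low cells, higher in 11 of 15 batches. Most of this was Pmp22, a myelin gene at a median of 948 against 819 CPM, the only 1 of 8 tested that was called (0.44, adjusted p = 0.00131). The defining glial genes Fabp7 and Sox10 were at medians of 0 to 1.67 CPM, and Apoe at 13.7 and 20.6 CPM. Other listed genes had more, with Glul at 204 and 188 CPM in high and low cells and S100b at 64.1 and 57.5 CPM. Mbp was at 42.0 and 64.2 CPM and Cnp at 44.0 and 55.8 CPM. Markers of fibroblasts, vessels and blood summed to medians of 3.52 to 9.49 CPM and those of immune cells to 24.0 and 23.2 CPM. Cldn5, Ptprc and Hbb-bs had no UMI in the 64914616 UMIs of both sides, which allows up to 0.0462 CPM by counting error alone. Leaving out the fifth of the cells richest in these markers called 1407 genes.

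Finally, the same split was made in Clmp cells, the nociceptors with at least 30 CPM of Clmp. Of 230 such cells, 64 were high and 64 low in 12 batches, each ranked by its own score within the batch. In a joint fit of both cell sets over 10507 genes, 806 genes were higher and 402 lower in high Clmp cells (11.5% called), beside 859 and 329 in P2rx3 cells. High Clmp cells were also shallower, with a median of 212941 against 375356 UMIs, lower in 9 of 12 batches (p = 0.013, permutation test with 100000 draws).

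The difference between the cell sets was tested as an interaction and called in 3 genes (0.0286%). At an unadjusted p under 0.05 there were 765 genes, 7.28% of those tested. Gzmbl2, a granzyme-like gene, was at a mean of 434 CPM in high and 110 CPM in low Clmp cells, higher in 12 of 12 batches, and at 129 and 122 CPM in P2rx3 cells. Its differences of 2.59 ± 0.33 in Clmp cells and -0.02 ± 0.29 in P2rx3 cells were themselves different (adjusted p = 0.00736). Cavin3, a caveolar coat protein gene, was lower in high Clmp cells in 12 of 12 batches, at 103 against 176 CPM (interaction adjusted p = 0.00882). In P2rx3 cells it was at 293 against 263 CPM, higher in 7 of 15 batches. It was called higher there in the joint fit (0.37 ± 0.11, adjusted p = 0.0312). Rps4y2, a ribosomal protein gene with close copies whose reads may be shared, was the third (adjusted p = 0.0434).

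For the injury genes no difference between the cell sets was called. In Clmp cells Gap43 rose by 0.65 (adjusted p = 0.000124), Gadd45a by 0.69 (adjusted p = 0.000133), Gal by 0.73 (adjusted p = 0.00265), Jun by 0.72 (adjusted p = 4.37e-05) and Flrt3 by 0.77 (adjusted p = 2.88e-05). Csrp3 (1.396), Cish (1.15) and Htr2b (1.42) rose there too, and 10 of the 12 largest rises passed in Clmp cells. Of the 12 largest falls, 3 did, Ano3, Etv5 and Dgkh, and all 12 had a negative value. Vip was at 0.25 in Clmp cells (adjusted p = 0.579), Calcb at -0.40 (adjusted p = 0.526) and Gfra2 at 0.28 (adjusted p = 0.814), with interaction adjusted p-values of 0.663, 0.568 and 0.53. An interaction of 0.5 on the log2 scale was recovered for 20.6% of genes in simulated data and one of 1 for 93.9%. The simulation changed only genes with a mean of at least 50 CPM. It gave both cell sets the spread between batches estimated in P2rx3 cells. In the data, interactions of -1.20 ± 0.46 for Calcb and -1.96 ± 0.69 for Gfra2 were not called. Differences over 1 between the cell sets could therefore also be missed, and smaller ones were mostly not detectable.

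**Figure D5:**
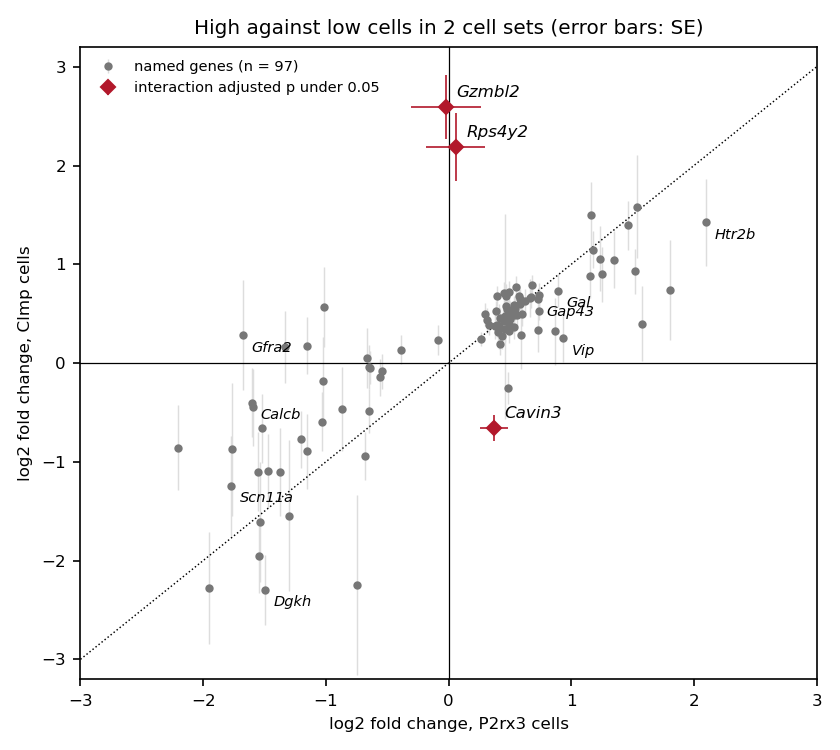
Log2 fold change of high against low cells in Clmp cells (vertical axis, SE as error bars, 12 batches) against that in P2rx3 cells (horizontal axis, 15 batches) for the 97 named genes in grey and the 3 genes with a called interaction in red, with the line of equality dotted. Gzmbl2 and Rps4y2 lie high on the vertical axis and near 0 on the horizontal one, and Cavin3 lies on opposite sides of 0.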

How the data were processed

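The deposited values are whole UMI counts per gene and cell (32883 gene rows), made by the authors on build Rnor_6.0 with SAMtools, STAR, UMI-tools, Subread and its featureCounts, per the submitters' processing notes, which give no versions. Those notes give no strand setting. Counts were summed per batch and side and tested with edgeR 4.0.16 in R 4.3.3 with terms for batch and side. Genes passed filterByExpr at 10 counts, libraries were scaled by TMM, and quasi-likelihood p-values were Benjamini-Hochberg adjusted over all genes (threshold 0.05). SE was taken as |log2 fold change|/√F. The batch is the block, because both sides of a batch are cells of that batch. On simulated data with 9513 genes, changes of 0.5, 1 and 2 (log2) were recovered in 66.2%, 100% and 100% of cases. Only genes with a mean of at least 50 CPM were changed. The interaction fit simulated 9769 genes.

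The members, the 20 gene lists (574 of 585 listed genes had a row) and the tests were chosen with earlier results of these data known. The rule named, from called genes that had a symbol, reached 50 CPM on their higher side and moved 1 way in 80% of batches or more, the 12 largest rises and falls, then up to 3 called members per list and direction, and 26 fixed genes, of which 4 were too low to test; Plaur, Timp1, Adcyap1, Tubb2a, Pfn1, Stmn3, Kcnd1, Kcnma1, Stat3, Atf4, Nfil3, Smad1 and the cell type markers outside this rule were named after their values were seen. Since cells came from single picks, doublets were not called. Batch 21, labelled with 40 cells, was not used here. Some genes are not reported here.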

Additional observations from a re-analysis of the deposited data

Results flagged for a closer look

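In 3 genes the difference between high and low cells itself differed between P2rx3 cells and Clmp cells (edgeR interaction test over 10507 genes). The P2rx3 difference minus the Clmp difference was -2.61 for Gzmbl2 and -2.13 for Rps4y2 on the log2 scale, both raised in high Clmp cells and not called in P2rx3 cells. It was 1.03 for Cavin3, which fell in high Clmp cells. In P2rx3 cells Cavin3 was called higher in the joint fit (adjusted p = 0.0312), though it was higher in only 7 of 15 batches. Rps4y2 was raised in 8 of 12 Clmp batches, at a mean of 61.5 against 14.5 CPM, and its close gene copies leave its counts uncertain.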

How the results depend on the processing

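The 1293 genes called in P2rx3 cells became 423 with cells thinned to 50000 UMIs before scoring, 478 thinned with sides kept, 700 with the residual score, 506 with the score from Sprr1a alone, 745 with P2rx3 at least 300 CPM and 304 within the limit on Sst, Nppb, Th and Trpm8. Fewer genes or cells entered each of these except the residual score, with 9872 genes tested. With the Sprr1a score 9679 genes were tested, beside 9792 in the main comparison. The cause of the smaller counts was not tested. RLE factors, no low-count filter, DESeq2 1.42.0, a split at the batch median, Atf3 alone, at least 100000 UMIs, Clmp under 10 CPM and leaving out cells rich in other markers gave 1124 to 1754 calls. Without each batch in turn the count ran from 992 (without batch 25) to 1416 (without batch 24). Without the replicate block 1059 genes were called. Of the called genes that could be tested, 1056 of 1059 kept their sign with cells thinned and sides kept, 1289 of 1290 with the residual score and 1231 of 1234 within the subtype limit. The thinned run holds the same cells on the same sides, and the other runs draw on the same P2rx3 cells. The kept signs are therefore not an independent check. The interaction gave 107 genes with no low-count filter, where 22486 genes were tested. Ret, which did not pass, changed sign with the split at the median (0.0070) and with Atf3 alone (0.14), and Th, at 0.50, did so with the same split (-0.39), at least 100000 UMIs (-0.0064) and without batch 27, with -0.041 to 0.97 over the batches left out in turn. Sprr1a passed in every alternative run for cells split by Atf3, and Atf3 in cells split by Sprr1a passed in none. The difference in depth was -0.15 for detected genes and -0.73 with the split at the batch median. Depth limits low genes most, since 1 UMI is 20 CPM in a cell of 50000 UMIs.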

Other observations

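The batch left out for its 7 P2rx3 cells, 28-1, had 232 to 1957 CPM of Atf3 (median 975) and 14.8 to 1338 CPM of Sprr1a (median 358) per cell. Its scores ran from 5.92 to 10.16.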
